A study of Mus musculus with 32 samples.

Results

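The data described here are 8 of the 32 mRNA libraries of the series: all those labelled as the METTL3-GRBD fusion line kept without Dex, with 2 libraries at each of days 0, 2, 4 and 6. Day 6 was compared with day 0 over all genes, and days 2 and 4 gave the order of the changes. The mouse cells carry a knockout of Mettl3, in a line whose parent is called Rx:GFP after its reporter, and over-express wild-type METTL3 joined to a domain that the labels name GRBD. The labels call the fusion protein cytosolic in the absence of Dex. At day 0 the cells were embryonic stem cells with no treatment, and at days 2, 4 and 6 they were retinal organoids in differentiation medium with AGN at 0.1 µM. Day, culture form and medium changed together, so their parts in a change cannot be told apart. The other groups of the series are the untransformed WT Rx:GFP line, the Mettl3 KO line, and the fusion line given Dex at 10 µM, each with 8 libraries over the same days and in the same medium. The duplicates came from independent rounds of library preparation and sequencing. The labels do not say that they came from separate cultures, so each p-value measures the spread between these libraries, which may be technical.

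METTL3 is the catalytic subunit of the complex that writes N6-methyladenosine (m6A) on RNA in the nucleus. Mouse embryonic stem cells hold a naive pluripotent state under Pou5f1, Nanog, Esrrb and the Klf factors. On differentiation they pass through a formative, epiblast-like state marked by Fgf5, Otx2 and Pou3f1 before they take on neural fate. In the anterior neural plate a set of eye field transcription factors, among them Rax, Six3, Lhx2 and Pax6, marks the cells that form the retina, while Irx genes and Wnt1 mark more posterior diencephalon and midbrain.

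Values are FPKM, fragments per length of transcript and per total of fragments, as the authors deposited them. Low values in short genes moved in whole steps, from which the 8 libraries held an estimated 33.1 to 40.0 M fragments. On a 2 kb transcript, 3 fragments correspond to 0.0437 to 0.0527 FPKM, and values near or below that level are too shallow to compare. Duplicates of a day correlated across genes at 0.9935 to 0.9942 (Pearson, log2 scale; genes are not independent replicates), within the range of 0.9922 to 0.9955 for the whole series. Mettl3 was present at 68.5 and 71.8 FPKM at day 0 and at 45.2 and 51.9 at day 6. In the KO line it was at 43.8 and 42.9 FPKM at day 0, so the gene-level value does not separate the knocked-out allele from the fusion transcript and checks no label. Nr3c1, the glucocorticoid receptor gene, stood at 1.55 and 1.62 FPKM at day 0 and at 0.51 and 0.68 at day 6.

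Between day 0 and day 6 the culture lost its stem cell transcripts and gained those of neural progenitors with diencephalic, midbrain and dorsal forebrain genes, while the retinal regulator Rax and the green fluorescent reporter were at low level at day 6. Of 11 eye field genes 7 rose and 1 fell, against 21.2% and 12.8% of all genes. Of 16276 genes tested, 3456 (21.2%) were higher at day 6 and 2084 (12.8%) were lower, together 5540 (34%). A gene was called when limma gave a Benjamini-Hochberg adjusted p under 0.05 and the difference of log2(FPKM + 1) was at least 1, a scale that understates the change of low genes. Without the size limit 13324 genes (81.9%) passed, and in 14511 (89.2%) the libraries of the 2 days did not overlap. The median change of all tested genes was 0.166 on the log2 scale. After each library was rescaled by its median ratio to the geometric mean, the median was -0.025 and the called genes split into 2717 higher and 2741 lower, a share of 49.8% higher in place of 62.4%. List medians are to be read against this median of 0.166, and counts of members over the whole course against 21.2% higher and 12.8% lower. Since these are bulk libraries, fewer cells of a type and less RNA per cell cannot be told apart.

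The steps differed in their content. From day 0 to day 2, 1870 genes (11.5%) were called, of which 1055 (6.48%) rose and 815 (5.01%) fell. With rescaling, the share of higher genes in this step was 42.6% in place of 56.4%. From day 2 to day 4, 1404 genes (8.63%) were called, of which 727 (4.47%) rose and 677 (4.16%) fell, and from day 4 to day 6, 1971 (12.1%), of which 1085 (6.67%) rose and 886 (5.44%) fell. Among genes lower at day 6, 830 (39.8%) had their largest step in the first interval, 636 (30.5%) in the second and 618 (29.7%) in the third. Among genes higher at day 6, the corresponding counts were 1125 (32.6%), 877 (25.4%) and 1454 (42.1%), and 1125 became 717 with rescaling. A pseudocount of 0.1 in place of 1 turned both orders, with 840, 929 and 1030 falls and 1886, 1161 and 1589 rises in the 3 intervals. The median fallen gene had completed 34.6% of its whole change at day 2 and 75.8% at day 4, against 28.8% and 63% for the median gene that rose. In addition, 280 genes (1.72%) were higher at day 2 than at both ends of the course, 306 (1.88%) were higher at day 4, and 99 (0.608%) and 82 (0.504%) were lower at day 2 and at day 4 than at both ends. These counts share genes with each other and with the genes called between days 0 and 6.

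**Figure D1:**
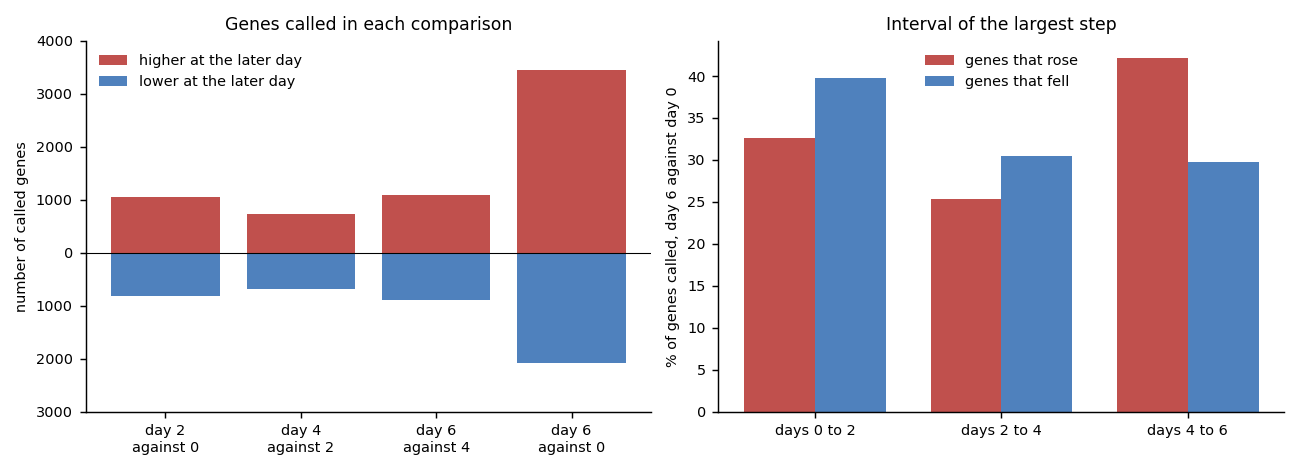
Left, numbers of called genes (adjusted p under 0.05 and a log2 change of at least 1) in each comparison of days in the fusion line without Dex, with higher genes above and lower genes below 0. Right, the share of the genes called between days 0 and 6 whose largest step fell in each interval. Falls were most often largest in the first interval (39.8%) and rises in the last (42.1%), an order that a pseudocount of 0.1 turned.

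All 18 genes of the naive pluripotency list fell between day 0 and day 6, against 12.8% of all tested genes, with a median log2 change of -3.88. At day 2, 15 of them had already fallen, against 5.01%. Zfp42 (Rex1), a zinc finger gene used as a marker of the naive state, read 443 and 437 FPKM at day 0, 127 and 127 at day 2, 11.8 and 10.4 at day 4, and 7.73 and 6.97 at day 6. The days did not overlap, and the log2 change was -5.72 (SE 0.05, adjusted p = 2.2e-24). Klf4, a reprogramming factor, fell in a single step, from 56.9 and 56.3 FPKM to 3.6 and 3.58 at day 2, and was at 2.74 and 3.02 at day 6. Esrrb, an orphan nuclear receptor of the naive network, fell stepwise through 115 and 117, 25.9 and 25.4, 3.48 and 3.81, and 1.89 and 2.14 FPKM. Socs3, a feedback target of LIF signalling, dropped from 98.3 and 96.0 FPKM to 7.47 and 7.62 at day 2 and then stayed between 6.38 and 7.62. Gbx2, Tbx3 and Nr0b1 also lost most of their signal before day 4, with log2 changes over the course of -4.79, -4.23 and -5.02. From day 4 to day 6 no member of the list was called in either direction. The summed level of the list went from 1282 FPKM in both libraries at day 0 to 341 and 347 at day 2, 60.3 and 60.7 at day 4, and 45.4 and 48.6 at day 6.

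The promoter of Zfp42 is shown because it was the single promoter of the naive list that held an octamer (ATGCAAAT, either strand), the letters bound by POU factors such as Pou5f1. It lies on the minus strand of chromosome 8, and the 250 bases before the start site (GRCm38.p6, chr8:43307010-43307259, RefSeq) read 5′ to 3′ as follows, with the match in capitals.
Zfp42: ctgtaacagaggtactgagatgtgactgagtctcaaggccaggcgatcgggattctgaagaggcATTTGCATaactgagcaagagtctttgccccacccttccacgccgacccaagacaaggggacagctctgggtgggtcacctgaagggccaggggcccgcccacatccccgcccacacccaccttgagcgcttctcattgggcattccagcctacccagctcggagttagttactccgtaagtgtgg
Promoters of 300 bases were found for 14 of the 18 genes, 17 in all. The octamer was in 1 of the 17 (5.88%) against 1.74% of 32851 promoters in the table. The ESRRB-type letters TCAAGGTCA were in 0 of 17 against 0.423%, and the E-box CAGCTG in 6 of 17 (35.3%) against 16.3%. A match describes these letters only.

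Of the 15 core pluripotency genes 12 fell, with a median log2 change of -5.22, and 2 of the 12 had their largest step in the first interval and 6 in the second. Of the 18 naive genes 8 had it in the first and 10 in the second, against 39.8% and 30.5% of all genes that fell. Of the 15 core genes, 4 fell from day 0 to day 2 (5.01% of all genes), 9 from day 2 to day 4 (4.16%) and 10 from day 4 to day 6 (5.44%). Pou5f1, which encodes Oct4, stood at 1049 and 1079 FPKM at day 0, at 779 and 765 at day 2, at 216 and 220 at day 4, and at 13.6 and 12.1 at day 6. No days overlapped, and the log2 change was -6.27 (SE 0.05, adjusted p = 3.6e-25). Utf1, a chromatin factor of undifferentiated cells, had the largest fall of all called genes with an official symbol, from 986 and 1015 FPKM to 3.57 and 4.03, a log2 change of -7.71 (SE 0.05, adjusted p = 2.2e-26). It too was still at 851 and 866 FPKM at day 2. Nanog departed from this order and went from 179 and 175 FPKM to 31.7 and 31.8 at day 2. Fgf4 and L1td1 were higher at day 2 than at day 0 by less than the size limit (Fgf4 25.2 and 26.4 against 39.7 and 39.3 FPKM, L1td1 224 and 227 against 338 and 329) before they fell to 0.66 and 0.77, and to 2.93 and 3.45 FPKM. The members not called between days 0 and 6 were Sox2, shared with neural progenitors, at 206 and 200.5 FPKM at day 0 and 171 and 172 at day 6, Lin28a, an RNA-binding protein that blocks let-7 maturation, and Trim71, a let-7 target. Lin28a was highest at day 4, at 243 and 237 FPKM, against 71.9 and 74.1 at day 0 and 78.5 and 79.5 at day 6.

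**Figure D2:**
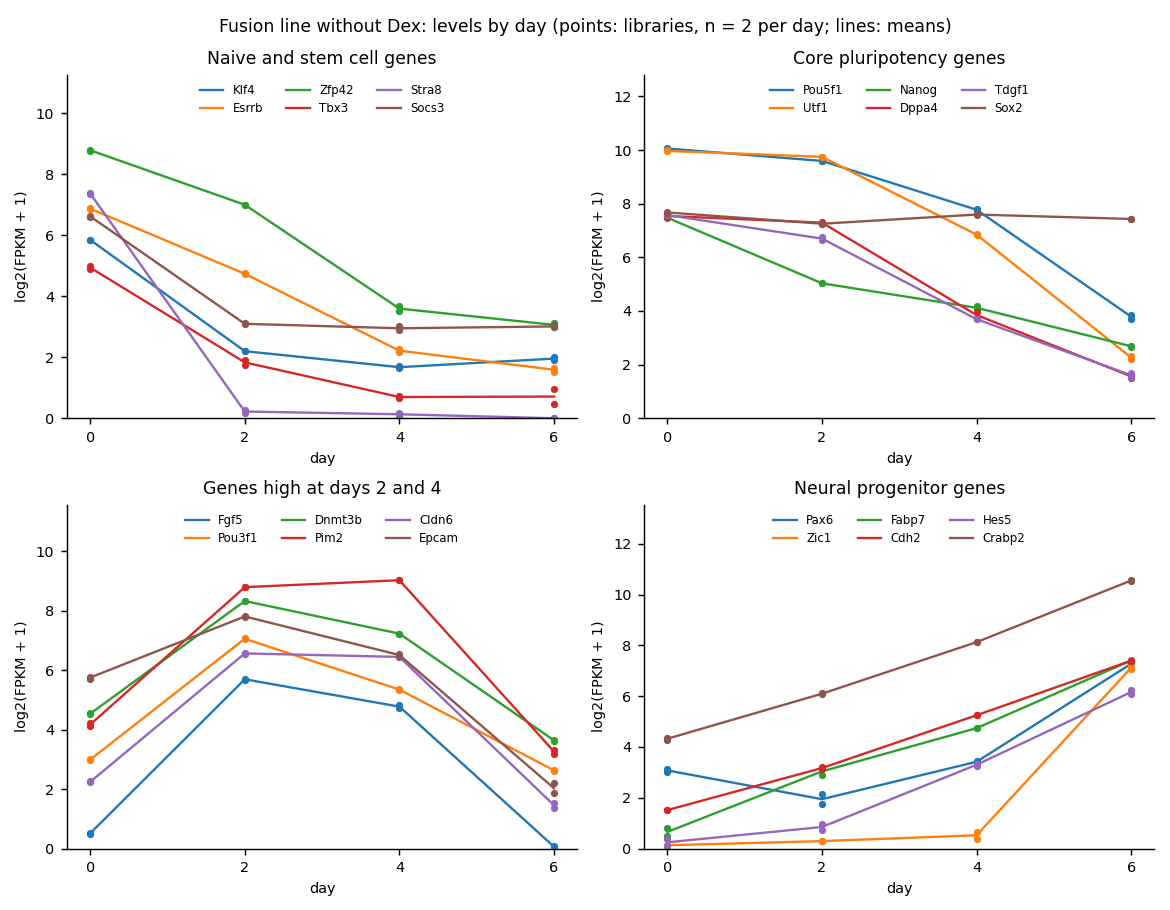
log2(FPKM + 1) against day for naive and stem cell genes, core pluripotency genes, genes high at the middle days and neural progenitor genes in the fusion line without Dex. Points are single libraries (2 per day) and lines join the day means. Klf4 and Stra8 were down at day 2, Pou5f1 and Utf1 fell mainly after day 2, Fgf5 and Pim2 rose and fell within the course, and Zic1 rose only after day 4.

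The genes with the largest falls beside these belonged to several classes. Tcf15, a bHLH factor, went from 512 and 526 to 1.58 and 2.34 FPKM, and Hspb1, a small heat shock protein gene, from 1342 and 1383 to 12.4 and 13.6, with log2 changes of -7.47 and -6.61. Stra8, the retinoic acid-induced gate to meiosis, was at 166 and 162 FPKM at day 0, at 0.12 and 0.21 at day 2, and was listed at 0 in both libraries at day 6. Its step to day 2, -7.15 on the log2 scale, was the largest fall of that interval. Aqp3, Bcl3, Cd37 and Mras followed in the same interval, with log2 changes between -4.92 and -6.28. Mymx, Khdc3, Rhox5 and Lefty1 fell by 6.09 to 7.03 over the whole course. Tdh, the threonine dehydrogenase on which mouse stem cells rely, held 155 and 151 FPKM at day 2 and dropped to 7.12 and 6.16 at day 4, the largest fall of that step (log2 change -4.33). Gdf3, Lefty2, Spp1 and Dppa5a came next in it, at -3.6 to -3.67.

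Among 12 germ line genes 10 fell and none rose, with a median log2 change of -1.88, and 8 of the 10 had their largest step between days 2 and 4, against 30.5% of all genes that fell. Mael, a piRNA pathway gene, held 6.40 and 5.81 FPKM at day 0 and 6.42 and 6.88 at day 2 before 0.52 and 0.87 at day 4. Of 8 tested genes of the 2-cell-like list, expressed in a small fraction of stem cells, 7 fell and all 7 did so from day 0 to day 2, against 5.01% of all genes in that step. Zscan4c went from 33.1 and 31.6 FPKM to 1.25 and 1.13 at day 2. The Zscan4 and Usp17 genes are near-identical copies, so their single values are uncertain, and the summed level of the list is given beside them. It was 129 and 131 FPKM at day 0, 7.37 to 7.78 at day 2 and 1.09 to 1.33 at day 6.

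Formative genes rose and then left again. Of 12 members, 9 (against 6.48% of all genes) rose from day 0 to day 2, 7 fell from day 2 to day 4 (4.16%) and 6 fell from day 4 to day 6 (5.44%), so that 4 were higher and 3 lower at day 6 than at day 0. Fgf5, a growth factor that marks the post-implantation epiblast, had the largest rise of the first step, from 0.44 and 0.41 to 51.8 and 49.96 FPKM (log2 change 5.19), stood at 27.2 and 25.7 at day 4 and was down to 0.05 and 0.04 at day 6. Days 2 and 4 were apart from both ends in every library. Pou3f1 (Oct6) followed the same course with 7.08 and 6.82, 131 and 135, 39.1 and 40.4, and 5.22 and 5.16 FPKM. Dnmt3b, a de novo DNA methyltransferase, peaked at 321 and 321 FPKM at day 2 from 21.8 and 22.7, and was at 11.6 and 11.3 at day 6. Pim2, a serine/threonine kinase gene, remained high for longer, at 445 and 444 FPKM at day 2 and 523 and 522 at day 4, against 16.5 and 17.7 at day 0 and 8.17 and 9.06 at day 6. Otx2, Sox3, Zic2 and Lef1 were the 4 members higher at day 6. Etv4 and Etv5, ETS factors downstream of FGF signalling, fell by 5.12 and 3.50, and Dnmt3a by 1.21.

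Epithelial genes passed through the same window. Of 11 tested members of the surface ectoderm and epithelium list 9 rose at day 2, against 6.48% of all genes. Of the 11, 6 were higher at day 2 than at both ends, against 1.72% of all genes, and 5 at day 4, against 1.88%. These made 8 genes in all, since some peaked by this rule at both days. Epcam, an epithelial adhesion molecule, read 54.2 and 51.8 FPKM at day 0, 222 and 225 at day 2, 91.7 and 89.0 at day 4, and 2.64 and 3.58 at day 6. Cldn6, a tight junction protein, went from 3.8 and 3.67 to 93.4 and 94.3 and was at 1.6 and 1.90 at day 6. The epidermal genes Krt5, Krt14 and Trp63 did not pass the expression filter, with at most 0.16 FPKM in any of the 8 libraries, and the members that rose are genes shared by epithelia in general. Cdh1 (E-cadherin) peaked with them at 151 and 149 FPKM and was at 3.83 and 3.8 at day 6, while Cdh2 (N-cadherin) rose at each step, from 1.83 and 1.89 through 7.82 and 8.20, and 37.1 and 37.0, to 168 and 167 FPKM. In the adhesion list of 15 genes, 9 rose over the course and 3 fell (Cdh1, Cdh3 and Epcam).

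Of 22 glycolysis and hypoxia genes 12 rose and none fell from day 0 to day 2, against 6.48% of all genes that rose. From day 2 to day 4, 4 rose (4.47% of all genes), and 6 fell from day 4 to day 6 (5.44%). At day 6, 9 were higher and 2 lower than at day 0, against 21.2% and 12.8%, with a median log2 change of 0.56. Bnip3, a mitophagy receptor induced by hypoxia, rose from 8.40 and 8.11 FPKM to 122 and 127 at day 2 and was at 156 and 154 at day 6 (log2 change 4.08, SE 0.03, adjusted p = 1.8e-25). Ldha, lactate dehydrogenase, went from 452 and 464 to 2008 and 2033 FPKM at day 2 and was at 1421 and 1432 at day 6. Slc16a3, the lactate exporter MCT4, and Ndufa4l2, a hypoxia-induced mitochondrial gene, were among the 5 largest rises of the first step, with log2 changes of 4.39 and 5.10, beside Pim2 at 4.62 and Car14, a carbonic anhydrase, at 4.41. Oxygen and glucose in the cultures were not measured. Of 19 cholesterol synthesis genes 5 rose from day 2 to day 4 (4.47% of all genes) and 4 fell from day 4 to day 6 (5.44%). Only 1 was higher at day 6 than at day 0, and with rescaling it was under the size limit.

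Neural progenitor genes replaced these programmes. Of 19 members 16 rose over the course, against 21.2% of all genes, and none fell, with a median log2 change of 4.10. From day 2 to day 4, 12 rose (4.47% of all genes), and 12 from day 4 to day 6 (6.67%). Ptn, which encodes the secreted growth factor pleiotrophin, had the largest rise of all called genes with an official symbol, from 0.98 and 0.94 through 7.32 and 7.26, and 49.6 and 47.2, to 282 and 281 FPKM (log2 change 7.17, SE 0.06, adjusted p = 1.8e-25). Zic1, a zinc finger factor of the neural plate border and dorsal neural tube, was at 0.08 to 0.59 FPKM through day 4 and at 133 and 145 at day 6, and its step of 6.60 was the largest rise of the last interval. Fabp7, a radial glia lipid-binding protein, Hes5, a Notch effector, and Crabp2, a retinoic acid-binding protein, reached 170 and 168, 67.0 and 74.8, and 1491 and 1524 FPKM at day 6, with log2 changes of 6.75, 5.92 and 6.23. Pax6 dipped before it rose, with 7.76 and 7.13 FPKM at day 0, 2.38 and 3.38 at day 2, 9.42 and 9.96 at day 4, and 156 and 152 at day 6. Vim and Sox21 dipped likewise, Vim from 243 and 257 to 57.7 and 58.6 FPKM at day 2. Vim then recovered to 430 and 432 at day 6, a change of 0.78 that was not called. Cotl1, Tmsb4x and Camk2n1 had the same shape at day 2, with day 6 values of 188 and 189, 540 and 533, and 7.32 and 7.06 FPKM close to those at day 0 (190 and 199.5, 609 and 593, and 8.26 and 8.59).

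The eye field list divided. Of its 11 genes, all tested, 7 rose, 1 fell and 3 were not called, with a median log2 change of 3.26, and 6 rose from day 2 to day 4 (4.47% of all genes). Rax, which encodes the homeodomain protein Rx and is needed for eye formation, was at 0.30 and 0.31 FPKM at day 0, 0.32 and 0.30 at day 2, 6.51 and 6.43 at day 4, and 0.79 and 1.03 at day 6. It was high at day 4 alone, and its change to day 6 (log2 0.55) was not called. The eGFP reporter had the same shape at a lower level: it read 2.77 and 2.38 FPKM at day 4 and between 0.10 and 0.48 in the other 6 libraries. Six3, an anterior homeobox gene, had the largest rise of the step from day 2 to day 4, from 0.19 and 0.06 to 34.6 and 33.1 FPKM (log2 change 4.95), and was lower again at day 6, at 10.7 and 12.2. Lhx2, a LIM homeobox gene required for optic vesicle growth, went from 0.56 and 0.68 FPKM at day 2 to 10.7 and 10.8 at day 4 and 18.0 and 16.6 at day 6. Six6 did not exceed 0.28 FPKM in any library. Fzd5, a Wnt receptor active in the eye field, was highest at day 4, at 27.0 and 26.9 FPKM, and fell to 0.69 and 0.78 at day 6, below its 15.1 and 15.8 at day 0. Mab21l2 and Nr2e1 rose to 56.7 and 55.8, and to 13.9 and 13.2 FPKM.

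Otx2, an anterior neural and later pigment-lineage homeobox gene, was called higher at day 2 already, as was Mab21l2, and went from 18.3 and 18.0 FPKM to 145 and 143 at day 2, 204 and 202 at day 4, and 166 and 170 at day 6. The homeobox core TAATTA was found in 2 of its 4 listed promoters and in no other of the eye field list. The one shown holds 3 matches, in capitals, in the 250 bases before the start site on the minus strand (GRCm38.p6, chr14:48665110-48665359, RefSeq).
Otx2: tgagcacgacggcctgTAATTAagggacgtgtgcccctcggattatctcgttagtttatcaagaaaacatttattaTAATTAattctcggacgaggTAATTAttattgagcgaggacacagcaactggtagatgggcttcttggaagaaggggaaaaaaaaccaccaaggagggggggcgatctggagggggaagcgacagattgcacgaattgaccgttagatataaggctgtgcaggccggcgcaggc
In all, 2 of 13 promoters (15.4%) of the 8 matched eye field genes held these letters, against 5.29% of the whole table, and 0 of 13 held the octamer, the E-box or the ESRRB-type letters.

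Most genes of later optic vesicle domains were low throughout. Of 12 tested genes of 14, 1 rose (Sfrp1, a secreted Wnt antagonist, from 3.31 and 3.45 to 73.3 and 72.7 FPKM) and 1 fell (Bmp4, from 77.8 and 78.9 to 2.24 and 4.99 FPKM). The median log2 change was -0.02, and 9 of the 14 were under 1 FPKM in all 8 libraries, among them Vax1, Vax2 and Tbx5. Pax2, an optic stalk gene, appeared at day 4 only, at 5.41 and 5.45 FPKM, against 0.28 and 0.32 at day 6. Of 12 pigment cell genes 10 were under 1 FPKM throughout. Pmel and Mlana, present at day 0 at 3.84 and 3.70, and 3.87 and 3.38 FPKM, fell, and the summed level of the list went from 7.49 and 8.26 to 2.14 and 2.27 FPKM.

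Day 4 had a profile of its own. Six3, Foxd4, Lhx5, Hesx1 and Cyp26a1 were the 5 largest rises from day 2 to day 4, with log2 changes of 4.33 to 4.95. Foxd4, a neural plate forkhead factor, read 32.6 and 31.3 FPKM at day 4 and 0.99 and 1.07 at day 6. Hesx1, an anterior forebrain and pituitary repressor, was at 1.91 and 2.55, 2.39 and 2.37, 76.1 and 72.9, and 0.32 and 0.08 FPKM over the 4 days, with day 4 apart from the rest. Cyp26a1, which degrades retinoic acid, was at 30.0 and 30.5 FPKM at day 4 and at most 0.79 in the other libraries. Lmx1b, Dlx5 and En1 also peaked there, Lmx1b at 25.6 and 24.9 FPKM. Lhx5 did not leave, and held 36.4 and 37.2 FPKM at day 6. Genes lowest at day 4 were fewer. Folr1, a folate receptor gene, went from 198 and 194 to 1.37 and 1.68 FPKM at day 4 and back to 34.0 and 35.8, and Sgk1, a kinase gene that responds to glucocorticoids in many cells, from 55.2 and 55.9 through 1.65 and 1.6 to 22.6 and 20.1.

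**Figure D3:**
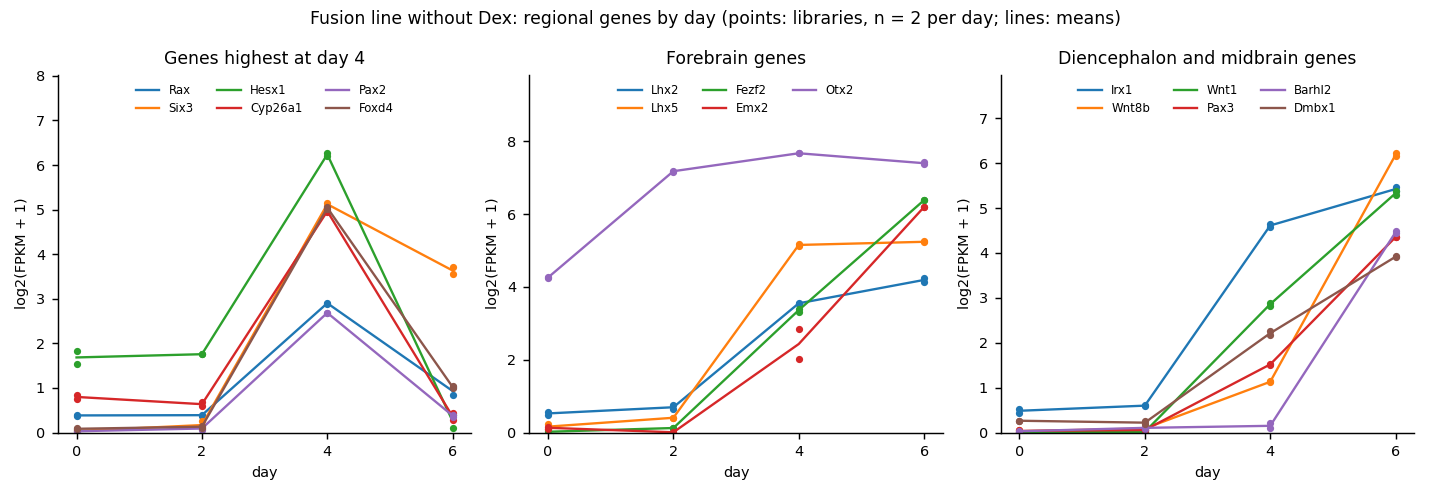
log2(FPKM + 1) against day for genes highest at day 4, forebrain genes, and diencephalon and midbrain genes in the fusion line without Dex. Points are single libraries (2 per day) and lines join the day means. Rax, Hesx1, Cyp26a1, Pax2 and Foxd4 came down again by day 6, Six3 in part, while Fezf2, Emx2, Wnt8b and Wnt1 were highest at day 6.

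By day 6 the regional genes at high level included those of the dorsal forebrain, diencephalon and midbrain. The diencephalon and midbrain list summed to 418 and 426 FPKM at day 6. The eye field list, which holds Otx2 and Pax6, summed to 431 and 432, and the telencephalon and hypothalamus list to 226 in both libraries. Of 23 genes of the diencephalon and midbrain list 20 rose, 1 fell (En2) and 2 were not called (En1 and Pax8), with a median log2 change of 2.85. None was called in either direction at day 2, 13 rose from day 2 to day 4 (4.47% of all genes) and 14 from day 4 to day 6 (6.67%). Irx1, an Iroquois homeobox gene, stood at 0.36 and 0.44, 0.51 and 0.52, 23.1 and 23.9, and 40.9 and 43.1 FPKM. Its change of 4.94 (SE 0.11, adjusted p = 1.0e-18) was mostly complete at day 4. Irx3 was highest at day 4, at 59.5 and 57.6 FPKM, and was at 24.3 and 24.4 at day 6. Wnt1, a midbrain and dorsal midline ligand, was listed at 0 in both day 0 libraries, and read 6.09 and 6.44 FPKM at day 4 and 37.9 and 40.6 at day 6. Otx1, Pax3, Barhl2 and Dmbx1 reached 43.6 and 43.5, 19.3 and 19.6, 20.7 and 21.4, and 14.0 and 14.2 FPKM, with log2 changes of 5.39, 4.32, 4.43 and 3.65. Of 5 tested hindbrain and Hox genes of 14, 1 rose and 2 fell, Gbx2 among the latter; 9 of the 14 were under 1 FPKM throughout.

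Of 12 tested telencephalon and hypothalamus genes of 15, 7 rose and 2 fell (Hesx1 and Eomes), with a median log2 change of 1.62. Fezf2, a forebrain zinc finger gene, was at 0.03 and 0.00 FPKM at day 0, 9.0 and 9.60 at day 4, and 82.1 and 83.3 at day 6 (log2 change 6.37, SE 0.05, adjusted p = 6.6e-26). Emx2, a dorsal forebrain homeobox gene, reached 72.4 FPKM in both libraries, a change of 6.07 (SE 0.20), and its day 4 libraries differed, at 6.16 and 3.07 FPKM. Nkx2-1, of the hypothalamus and ventral telencephalon, stayed at or under 0.04 FPKM in all 8 libraries. Nr2f1, a nuclear receptor of caudal cortex, and Pantr1, a noncoding transcript beside Pou3f3, rose to 84.1 and 83.9, and 73.1 and 73.5 FPKM, with changes of 6.24 and 6.20.

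Many neuronal genes rose in the last step. Of 24 tested early neuron genes 17 rose and 1 fell, with a median log2 change of 1.51, and 13 of the 17 had their largest step between days 4 and 6, against 42.1% of all genes that rose. Neurog1, a proneural bHLH factor, read 8.0 and 9.02 FPKM at day 6 from at most 0.33 before. Neurog2 had come at day 4, at 3.87 and 3.78 FPKM, and was at 1.59 and 1.86 at day 6. Their follower genes Nhlh1, Neurod4 and Nhlh2 were at 5.91 and 6.26, 1.96 and 1.94, and 2.53 and 2.46 FPKM at day 6, the last 2 from 0 in both day 0 libraries. Dcx, a marker of migrating neurons, reached 1.3 and 1.38 FPKM from a listed 0. Neuronal cytoskeleton genes did not all move with them: Tubb3 was at 205 and 211 FPKM at day 0 and 211 and 213 at day 6, after 64.7 and 65.0 at day 2. Stmn2 fell from 105 and 106 to 19.2 and 19.9.

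Elavl4, which encodes the neuronal RNA-binding protein HuD, rose from 0.51 and 0.40 FPKM at day 0 and 0.81 and 0.47 at day 4 to 7.26 and 7.25 at day 6 (log2 change 2.51, SE 0.10, adjusted p = 1.1e-14). One of its 4 listed promoters is shown because it holds both an E-box (CAGCTG), the letters bound by proneural bHLH dimers, and a homeobox core (TAATTA). It is on the minus strand (GRCm38.p6, chr4:110287528-110287777, RefSeq), with both in capitals.
Elavl4: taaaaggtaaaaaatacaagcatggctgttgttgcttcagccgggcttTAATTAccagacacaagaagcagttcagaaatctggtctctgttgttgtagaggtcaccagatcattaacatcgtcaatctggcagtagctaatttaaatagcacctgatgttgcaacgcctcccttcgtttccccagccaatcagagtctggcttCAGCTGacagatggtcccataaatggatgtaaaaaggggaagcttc
Among 25 promoters of the 18 early neuron genes with one, 8 (32%) held the E-box, against 16.3% of all, and 5 (20%) held the homeobox core, against 5.29%. The octamer was in 1 (4.0%), against 1.74%, and the ESRRB-type letters in none, against 0.423%. Several promoters belong to 1 gene and overlap, so these are not independent.

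Neural crest and border genes came with the neuronal ones. Of 19 members 11 rose and none fell, with a median of 1.49, and 8 of the 11 had their largest step between days 4 and 6, as did 8 of the 9 adhesion genes and 17 of the 25 Wnt pathway genes that rose. Of all genes that rose, 42.1% had it there. Sox10, a crest and glial regulator, was at most at 0.57 FPKM through day 4 and read 18.2 and 19.0 at day 6, and Tfap2b was at most at 0.10 and then read 17.6 in both libraries. Msx1, a BMP-responsive homeobox gene, rose from 0.32 and 0.33 to 20.1 and 20.8 FPKM. The list shares Pax3, Pax7 and Zic1 with dorsal neural tube, and Snai1, Snai2 and Foxd3 were not called, at 1.47 and 1.64, 1.91 and 1.99, and 8.01 and 8.07 FPKM at day 6.

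**Figure D4:**
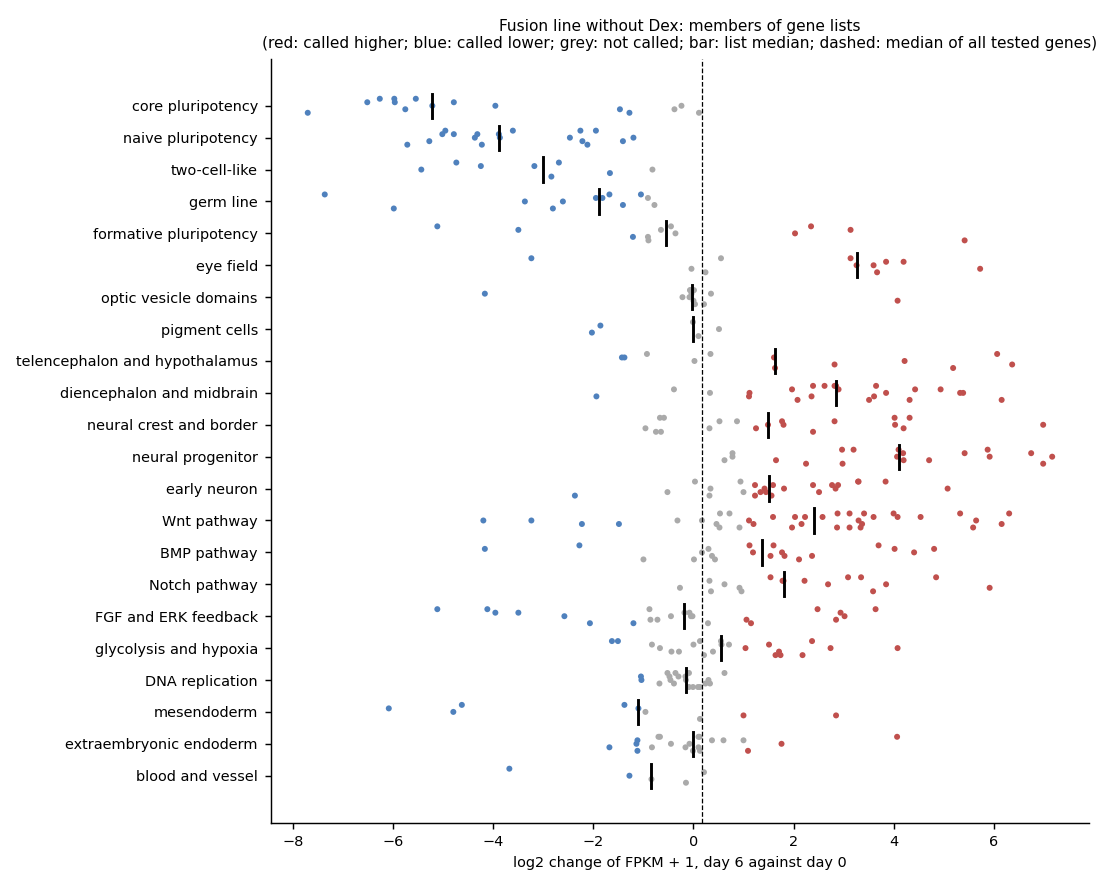
Difference of log2(FPKM + 1) between day 6 and day 0 for the tested members of 22 gene lists in the fusion line without Dex. Each point is a gene, red where called higher, blue where called lower and grey where not called; the bar is the list median and the dashed line the median of all tested genes, 0.166. Pluripotency and 2-cell-like members lie to the left, neural progenitor and diencephalon and midbrain members to the right, and optic vesicle and pigment members near 0.

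In the Wnt pathway 25 of 36 tested genes rose and 4 fell, with a median log2 change of 2.41, and 19 rose from day 4 to day 6 (6.67% of all genes). Among ligands, Wnt8b rose from 1.20 and 1.18 FPKM at day 4 to 70.1 and 73.9 at day 6, and Wnt7b from 2.69 and 2.48 to 81.6 and 81.3. Wnt3, Wnt3a, Wnt4, Wnt5a, Wnt5b and Wnt7a rose as well, to between 1.33 and 12.9 FPKM. The R-spondins, which stabilise Wnt receptors, rose in the same step: Rspo3 from 0.34 and 0.19 FPKM at day 4 to 84.5 and 83.0, Rspo2 from 0.07 in both to 48.5 and 47.9, and Rspo1 from 14.4 and 11.3 to 56.8 and 56.0. Rspo3 and Rspo2 were among the 5 largest rises of that step, with changes of 6.07 and 5.52, as was Wfdc1 (5.68). Receptors exchanged: Fzd1, Fzd2, Fzd3 and Fzd10 rose by 3.34, 2.88, 3.6 and 2.58, and Fzd5 fell by 3.24. Some targets of the pathway, among them Axin2, Sp5 and Nkd1, rose with the ligands. Axin2 went from 3.35 and 3.09 to 43.5 and 44.0 FPKM, Sp5 from 0.21 and 0.33 to 19.0 and 19.5, and Nkd1 from 1.97 and 1.56 to 61.7 and 64.4. The antagonists Sfrp1, Sfrp2 and Frzb rose too, by 4.08, 3.30 and 3.12. Tcf7l1, a repressor among the TCF factors, and Notum, a Wnt deacylase, fell by 2.23 and 4.20.

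In the BMP list 12 of 20 tested genes rose and 2 fell, with a median of 1.36. The ligand Bmp4 fell, while Bmp7 rose from 2.25 and 1.85 to 12 and 12.3 FPKM, and Bmp2, Bmp5 and Bmp6 rose to between 1.11 and 2.91. The targets Id1, Id2 and Id3 rose to 137 and 144, 67.6 and 72.5, and 366 and 380.5 FPKM, with changes of 1.6, 4.81 and 4.41, and the antagonist Nog rose to 17 and 16.3 from 0.29 and 0.44. Smad7, an inhibitory Smad, fell by 2.28. In the Notch list 11 of 17 tested genes rose and none fell, with a median of 1.80. The ligands Dll1 and Jag1 reached 30.1 and 32.8, and 9.62 and 10.1 FPKM, and the targets Hey1 and Nrarp 11.4 and 11.8, and 50.2 and 51.0. Hes1 was not called, at 32.1 and 38.2 FPKM at day 0 and 54.8 and 53.8 at day 6.

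The FGF and ERK list divided evenly, with 7 higher and 7 lower of 23 and a median of -0.18. Receptors rose, Fgfr2 from 4.62 and 3.94 to 64.8 and 64.7 FPKM and Fgfr3 from 0.24 and 0.33 to 8.65 and 9.10, and of the feedback genes Spry4 and Spry2 fell by 4.12 and 2.07 while Spry1 rose by 1.06. With rescaling 2 called members of the list, Spry1 among them, were under the size limit. Fgf8, a patterning ligand of the midbrain-hindbrain and anterior borders, was at most 2.16 FPKM through day 4 and 14.2 and 14.9 at day 6. In the Hedgehog list 5 of 11 tested genes rose and 2 fell: the coreceptors Boc, Cdon and Gas1, the transducer Smo and Gli3, mostly a repressor, rose by 2.57 to 4.92, and the target Gli1 fell by 2.59. Shh did not exceed 0.06 FPKM. Of 12 tested retinoic acid genes 3 rose and 3 fell. The binding proteins Crabp1 and Crabp2 rose by 2.14 and 6.23 and the receptors Rarg and Rara fell by 4.36 and 1.44, while the retinal dehydrogenases Aldh1a1, Aldh1a2 and Aldh1a3 were at most 0.40 FPKM in any library.

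Of 10 DNA methylation genes 5 fell and 1 rose: Dnmt3l, cofactor of the de novo enzymes, fell from 162 and 167 to 3.74 and 3.12 FPKM, and Tet3 rose from 0.78 and 0.88 to 9.66 and 9.25. Of 16 chromatin remodeller genes 4 rose and 2 fell, shares close to the 21.2% and 12.8% of all genes, with Smarca2 (BRM) going from 0.90 and 0.88 to 38.8 and 34.8 FPKM, and neuron-specific Actl6b at 0.81 and 0.34 at day 6. Among 23 tested imprinted genes 11 rose and 5 fell, with Nnat, Igf2 and Mest rising by 4.50, 4.47 and 2.98 and Phlda2 falling by 4.00. Of 19 genes of the m6A machinery 5 rose and none fell, with a median of 0.61, and the share that rose was close to the 21.2% of all genes. They were the demethylases Fto (16.5 in both libraries to 38.5 and 39.7 FPKM) and Alkbh5 (7.71 and 8.12 to 20.8 and 20.7), the readers Igf2bp2 and Igf2bp3, and Rbm15b, a member of the writer complex, and 2 of the 5 were under the size limit with rescaling. Of 13 glucocorticoid response genes 4 rose and 5 fell, with no Dex in these cultures. Tsc22d3 (GILZ) and Fkbp5, classical targets of the receptor, moved apart, from 1.05 and 1.3 to 21.7 and 21.5 FPKM and from 32.4 and 32.7 to 14.8 and 14.3.

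Of 21 cell cycle genes 5 rose and 5 fell, against 21.2% and 12.8% of all genes. Ccnd2, the D-type cyclin of neural progenitors, went from 0.98 and 1.10 to 41.6 and 42.6 FPKM and Mki67 rose by 1.47, while Ccne1, Myc and Cdkn2a fell by 1.61, 2.25 and 2.96. DNA replication genes showed 2 falls and no rise among 20, with a median of -0.16, and 0 of 13 mitochondrially encoded genes were called, with log2 changes between -0.24 and -0.91. Of 14 p53 targets 4 fell (Bax, Pmaip1, Phlda3 and Gtse1) and none rose, and Cdkn1a was at 27.1 and 30.2 FPKM at day 0 and 22.5 and 25.1 at day 6.

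Markers of other lineages were mostly low at day 6. The summed level of the 15 mesendoderm genes went from 190 and 192 FPKM at day 0 to 16.5 and 17.9 at day 4 and 19.9 and 20.2 at day 6. Nodal, Lefty1 and Lefty2 made up most of the first value and Fgf8 most of the last. Of 9 tested members 5 fell and 2 rose (Fgf8, and Tbx6, which was under the size limit with rescaling). The genes T, Mixl1 and Mesp1 were at most at 0.82 FPKM in any library. Of 21 extraembryonic endoderm genes 3 rose, among them the tissue plasminogen activator gene Plat at 20.4 and 19.8 FPKM, and 4 fell. Of its members, Afp, Ttr, Sox7 and Foxa2 were at most 0.38 FPKM in any library, while 9 of the 21 had a mean of at least 1 FPKM at day 6. The summed level of the list, 596 and 604 at day 6, was mostly Apoe, at 473 and 481. Trophoblast genes summed to 19.1 and 20.03 FPKM at day 6, mostly Tfap2c, and blood and vessel genes to 1.21 and 1.56.

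The course without Dex was then set against those of the KO, Dex and WT cultures, by the difference between the changes from day 0 to day 6 (limma interaction, same limits). All 3 tests use the same 4 libraries without Dex, so they are not independent of each other. Against the KO line, 713 genes (4.38%) differed, 368 (2.26%) with the higher change without Dex and 345 (2.12%) with the lower. With rescaling, 38.3% in place of 51.6% of the called genes were on the higher side. Against the Dex culture of the same line the count was 532 (3.27%), 260 (1.6%) on the higher and 272 (1.67%) on the lower side, and against WT 1621 (9.96%), 978 (6.01%) and 643 (3.95%). With rescaling the higher share was 41.5% in place of 48.9% against Dex, and 52% in place of 60.3% against WT. In the comparison with WT, the 858 chromosome 8 genes had a median difference of 0.31 against 0.05 for the other chromosomes, with 102 called on the higher and 22 on the lower side. Over the course without Dex itself their median change was 0.13, against 0.17 for the other chromosomes. Against KO and against Dex their median difference was -0.03, with 0.03 and 0.02 for the other chromosomes. The cause was not tested. Without the chromosome 8 genes 1497 were called against WT.

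Several forebrain genes separated the fusion line without Dex from the KO line, as did Wnt8b of the diencephalon and midbrain list and Rspo3 of the Wnt list. At day 6 Fezf2 read 82.1 and 83.3 FPKM without Dex and 8.10 and 7.31 in KO, Wnt8b 70.1 and 73.9 against 6.13 and 5.37, and Rspo3 84.5 and 83.0 against 9.32 and 9.44. All were near 0 at day 0 in both, and the differences between courses were 3.32, 3.42 and 3.02 on the log2 scale. Emx2 and Fezf1 were on the same side, with differences of 2.82 and 3.33. Of 12 tested telencephalon and hypothalamus genes 5 were on the higher side, against 2.26% of all genes, and none on the lower. The diencephalon and midbrain list leaned the other way, with 2 of 23 on the higher and 7 on the lower side, against 2.12%. Irx5 reached 68.8 and 68.9 FPKM in KO against 15.2 and 17, a difference of -2.29. The eye field list divided, with 3 of 11 on the higher side, against 2.26% of all genes, and 2 on the lower, against 2.12%. Among the 3 were Six3 (10.7 and 12.2 FPKM against 0.69 and 0.58, difference 2.94) and Lhx2 (18.0 and 16.6 against 4.59 and 5.35, difference 1.75). The summed level of the list at day 6 was lower without Dex, at 431 and 432 FPKM, than in KO, at 556 in both libraries. Egr1, an immediate early gene, differed at its start, with 24.7 and 24.4 FPKM at day 0 without Dex and 2.56 and 2.40 in KO, a difference between courses of -4.03. Gadd45g (-2.72) started from 35.9 and 39.8 FPKM against 9.79 and 8.76 and ended at 39.7 and 45.4 against 73.4 and 76.4.

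Against the Dex culture, retinal and pigment genes were on the lower side without Dex and neuronal and midbrain genes on the higher. Rax was at 0.79 and 1.03 FPKM at day 6 without Dex and at 53.9 and 55.5 with it, a difference between courses of -4.97 (SE 0.09, adjusted p = 1.2e-17), and the reporter eGFP at 0.10 and 0.30 against 132 and 139 (-6.88). Of the 11 eye field genes 6 were on the lower side, against 1.67% of all genes, and none on the higher, Lhx2 at -2.88 and Six3 at -2.02 among them, and likewise 6 of 12 tested optic vesicle genes. Of the 5 tested pigment genes 3 were on the lower side: Trpm1 at 0.61 and 0.58 against 45.8 and 47.6 FPKM (-4.75), Dct at 0.08 in both against 16.3 and 15.8 (-4.05), and Pmel at 0.29 and 0.34 against 34.7 and 31.5 (-3.73). Of all 12 pigment genes 10, Trpm1 and Dct among them, were under 1 FPKM in all 8 libraries without Dex. So were 9 of the 14 optic vesicle genes and 2 of the 11 eye field genes. Those of them that were tested passed the filter only through other cultures, where they were higher. The lower-side counts of these lists were thus partly set by the filter. Slc38a8, a retinal glutamine transporter, read 0.03 and 0.06 against 20.8 and 21.1 (-4.37). Of the diencephalon and midbrain genes 12 of 23, and of the early neuron genes 12 of 24, were on the higher side, against 1.6% of all genes, and none on the lower. Irx1 was at 40.9 and 43.1 against 11.2 and 12 FPKM (1.85), Irx2 at 35.4 and 35.0 against 8.32 and 7.52 (2.04), Pax3 at 19.3 and 19.6 against 3.82 and 3.79 (2.13), and Neurod1 at 4.85 and 4.28 against 1.13 and 1.36 (2.04). Of 12 tested telencephalon and hypothalamus genes 2 were on the lower side and none on the higher, and the list summed to 225.6 and 225.9 FPKM at day 6 without Dex and 345.6 and 349 with it. Emx2, by contrast, was not called: it read 72.4 FPKM in both libraries without Dex and 88.1 and 86.9 with it, and the courses differed by -0.24 (SE 0.28, adjusted p = 0.51).

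**Figure D5:**
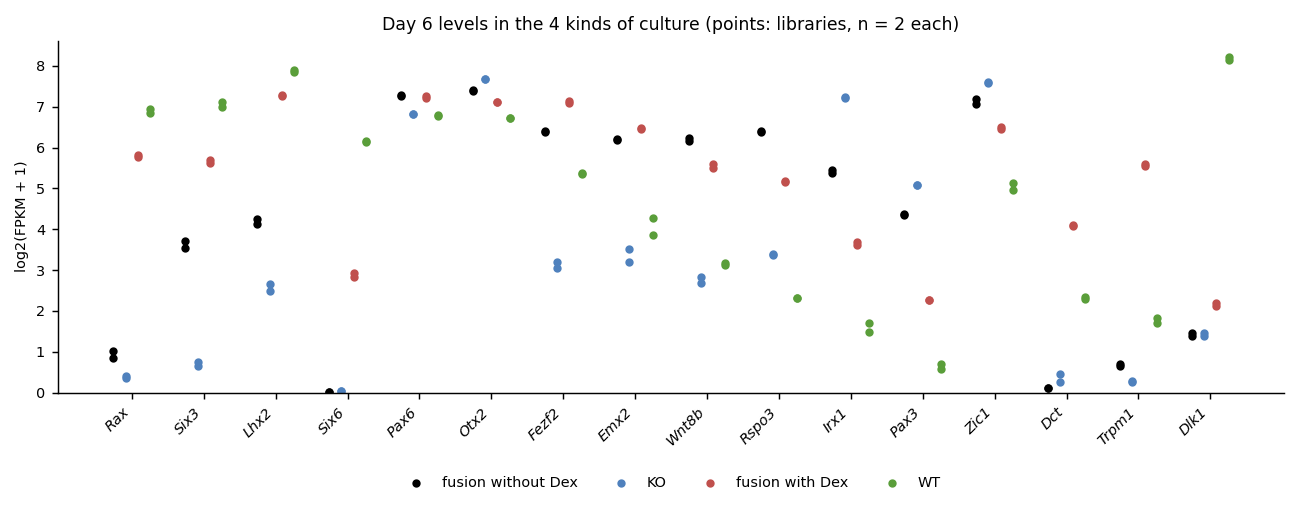
Day 6 levels of regional, neural progenitor and pigment genes as log2(FPKM + 1) in the 4 kinds of culture, 2 libraries each as single points. Without Dex, Rax, Six6, Dct and Trpm1 lie near the KO points and below both the Dex and WT points, Fezf2 and Wnt8b lie well above KO, and Irx1 lies between KO and Dex.

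Against WT the retinal genes lay far below. Rax read 122 and 115 FPKM in WT at day 6 (difference -5.94), Six6 70.3 and 69.0 against 0.01 in both libraries without Dex (-6.13), Vax2 54.3 and 52.9 against 0.03 and 0.22 (-5.55) and eGFP 200 and 190 (-7.22). The imprinted Notch ligand-like gene Dlk1 had the lowest difference among genes with an official symbol, -7.67, at 1.75 and 1.63 FPKM without Dex and 295 and 284 in WT. Six3 and Lhx2 were on the same side, with differences of -3.40 and -3.88. In all, 7 of 11 eye field genes and 9 of 12 tested optic vesicle genes were on the lower side, against 3.95% of all genes, and 1 of each on the higher. Of the 14 optic vesicle genes 9, and of the 11 eye field genes 2, were under 1 FPKM in all 8 libraries without Dex. Those of them that were tested passed the filter only through other cultures, so these counts were partly set by the filter. On the higher side, which held 6.01% of all genes, were 15 of 23 diencephalon and midbrain genes, 19 of 24 early neuron genes and 13 of 19 neural crest and border genes, with 2, 0 and 1 on the lower. The 6 genes furthest on it were Wfdc1 (68.1 and 65.2 against 1.57 and 2.00 FPKM, difference 4.53), Fzd10 (26.0 and 26.2 against 1.44 and 1.14, 4.41), Rspo3 (4.08), Wnt1 (4.02), Rspo2 (3.95) and Pantr1 (3.91). Wfdc1 lies on chromosome 8, and Wnt1 and Pantr1 were listed at 0 or at most 0.02 FPKM at day 0 in both cultures. Fezf2 differed by 1.02, at 82.1 and 83.3 against 39.6 and 40.3 FPKM. Of 21 extraembryonic endoderm genes, all tested, 15 were on the lower side, against 3.95% of all genes, and 1 on the higher. However, 9 of the 21 were under 1 FPKM in all 8 libraries without Dex. These 9 passed the filter only through other cultures, so this count too was partly set by the filter. The summed level of the list at day 6 was 596 and 604 FPKM without Dex and 1849 to 1885 in WT. The part of such cells in the differences from WT was not tested.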

How the data were processed

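Poly(A)-selected mRNA of 32 libraries was measured, of which 8 are the fusion line without Dex. The FPKM values were used as deposited; the submitters' processing notes name STAR, Cuffdiff and the build mm10, with no versions, and roles are not given in the sources used here. The table holds 55492 genes, and no column was left unmapped. Genes with at least 1 FPKM in at least 2 of the 32 libraries (16276) were fitted as log2(FPKM + 1) in limma 3.58.1 (R 4.3.3), with 16 group means, 16 residual degrees of freedom, a trended prior and Benjamini-Hochberg adjustment. Of the genes tested, 869 were under 1 FPKM in all 8 libraries without Dex and passed the filter only through other cultures. All adjusted p-values are from this model. The pooled spread comes from all 32 libraries. The fit was also run on simulated data with normal noise at the fit's own residual spread. Such data cannot test the scaling or the shape of the errors in the deposited values. FPKM is relative to each library's total, so a large change in a few genes shifts the others. In all, 346 tested genes were listed at 0 in both libraries of day 0 and 388 in those of day 6.

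The genes named are Mettl3, Nr3c1, the reporter, members of 38 gene lists, and, among genes with an official symbol, the 12 largest rises and falls over the course, the 5 largest of each step, the 6 largest peaks and troughs at days 2 and 4, and the 6 highest and lowest differences from each other course. Not all of these are named in the text, and some are not reported here. Members and lists were chosen with earlier results of these data known. Replicate numbers did not pair the libraries: deviations of same-numbered libraries correlated at -0.018 to 0.057. Promoter sequences are from RefSeq (GRCm38.p6), matched by symbol, and were searched on both strands. Alternatives changed the pseudocount, filter, scaling, libraries, block and threshold.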

Additional observations from a re-analysis of the deposited data

Results flagged for a closer look

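The results here are differences between the change from day 0 to day 6 without Dex and that in another culture of the series, on the log2(FPKM + 1) scale, each past an adjusted p of 0.05 in the limma interaction and a size of 1. They numbered 713 genes against KO, 532 against the fusion line with Dex and 1621 against WT.

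Against KO, the differences toward a higher change without Dex were 3.64 for Zfp978, 3.42 for Wnt8b, 3.33 for Fezf1, 3.32 for Fezf2, 3.02 for Rspo3, 2.94 for Six3, 2.82 for Emx2 and 1.75 for Lhx2. Zfp978 differed at its start: it read 4.76 and 4.32 FPKM at day 0 without Dex and 43.8 and 43.0 in KO, and was at most 1.34 in either at day 6. On the other side were Exosc6 (-6.30), Egr1 (-4.03), Rpgrip1 (-3.78), Gadd45g (-2.72), Pou3f1 (-2.63) and Irx5 (-2.29). Exosc6, a subunit of the RNA exosome, was listed at 0 in both KO libraries at day 0 and at 69.0 and 74.0 FPKM without Dex, while at day 6 it was at 101 and 106 against 97.0 and 93.7. A 0 for a gene that every cell uses may be a failed estimate, so this difference is given as library values only. Rpgrip1, a ciliary gene, was at 36.6 and 36 FPKM at day 0 without Dex and 1.34 and 0.87 in KO.

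Against the Dex culture, the higher side held Zfp978 (2.56), Adnp (2.18), Pax3 (2.13), Spink10 (2.07), Irx2 (2.04), Neurod1 (2.04) and Irx1 (1.85). Adnp, a chromatin factor of neural development, went from 0.72 and 0.90 to 15.8 and 14.9 FPKM without Dex and from 2.50 and 3.31 to 7.61 and 6.03 with it. For Spink10 the 2 Dex libraries of day 0 differed, at 2.67 and 0.01 FPKM, so 1 library weighs heavily on its value. The lower side held eGFP (-6.88), Bc1 (-6.68), Rpgrip1 (-5.49), Rax (-4.97), Trpm1 (-4.75), Slc38a8 (-4.37), Dct (-4.05), Pmel (-3.73), Lhx2 (-2.88) and Six3 (-2.02). Bc1, a small cytoplasmic RNA, was at 13.6 and 39.4 FPKM at day 0 without Dex and at 0 and 11.9 at day 6, so its value depends on single libraries. Rpgrip1 rose with Dex, from 7.39 and 8.5 to 11.7 and 16.8 FPKM, and read 0.25 and 0.57 at day 6 without it.

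Against WT, the higher side held Wfdc1 (4.53), Fzd10 (4.41), Rspo3 (4.08), Wnt1 (4.02), Rspo2 (3.95), Pantr1 (3.91) and Fezf2 (1.02). The lower side held Dlk1 (-7.67), eGFP (-7.22), Six6 (-6.13), Rax (-5.94), Vax2 (-5.55), Lhx2 (-3.88) and Six3 (-3.40).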

How the results depend on the processing

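No comparison of days and no comparison of courses changed its count by over 1.5 times when the low-value filter was dropped, when only the compared groups were fitted, or when chromosome 8 was left out, the last chosen after seeing the data (5235 genes between days 0 and 6). In the order day 6 against 0, 2 against 0, 4 against 2, 6 against 4, and the courses against KO, Dex and WT, a mean of at least 5 FPKM, which tests fewer genes, gave 2999, 1109, 836, 1030, 412, 265 and 776 calls, and an adjusted p without a size limit 13324, 11055, 9899, 11048, 8103, 7919 and 9734. Testing against a change of 1 (limma's treat) gave 1049, 779, 1138, 141, 112 and 663 in the same order from day 2 against 0 on. A pseudocount of 0.1, which enlarges the changes of low genes, gave 3567, 2859, 3473, 1580, 1335 and 2914 for these, with 582 and 570 peaks and 218 and 197 troughs at days 2 and 4, 1886 rises largest in the first interval and 1030 falls largest in the last. With rescaling the former were 717. Leaving out 1 library gave 5546 to 5570 calls between days 0 and 6, 727 to 778 against KO, 523 to 582 against Dex and 1614 to 1782 against WT; the lone library was assumed to vary like the other groups. With the replicate number as a block, 5541 genes were called between days 0 and 6, 5540 of them shared, and the block changed no other count by over 1.5 times.

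Named genes not called changed sign in these cases: with rescaling Gadd45g (-0.110), Lin28a (-0.165), Tubb3 (-0.254), Aldh1a3 (-0.023), Dlx5 (-0.025) and Vax1 (-0.009); and with 1 library left out Dct (-0.091 to 0.068), Dlx5 (-0.036 to 0.074), Vax1 (-0.133 to 0.2), Vax2 (-0.196 to 0.048) and eGFP (-0.308 to 0.082). The cause was not tested. Depth limits values near 0.05 FPKM or below.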

Other observations

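Long noncoding RNAs moved in both directions. Of 14 tested members of a list of 16, 4 rose and 5 fell between days 0 and 6, with a median log2 change of -0.05. Lncenc1, a noncoding RNA of stem cells, went from 53.9 and 54.2 FPKM at day 0 through 31.9 and 31.7, and 2.67 and 2.70, to 1.00 in both libraries at day 6. Neat1, the scaffold of paraspeckles, was close to its starting level at day 2 (21.4 and 22.2 against 20.9 and 20.7 FPKM) and at 4.52 and 4.75 at day 4. Miat rose early, from 0.60 and 0.81 to 7.97 and 8.94 FPKM at day 2, and Rmst, a noncoding RNA of neural progenitors, late, from at most 0.14 FPKM through day 4 to 7.68 and 8.99. Malat1 stayed between 445 and 731 FPKM in all 8 libraries. Meg3 was at 1058 and 1094 FPKM at day 2, against 446 and 433 at day 0 and 586 and 612 at day 6.

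Igfbp5, an insulin-like growth factor binding protein, was among the largest rises, from 0.12 and 0.11 FPKM at day 0 through 6.85 and 6.68 at day 4 to 77.4 and 76.6 at day 6 (log2 change 6.13). It was at 74.2 and 75.8 FPKM in KO at that day and at 275 and 281 in WT. Vrtn was among the highest peaks of the middle days, at 33.2 and 33.4 FPKM at day 2 and 28.5 and 26.8 at day 4, against at most 1.16 at days 0 and 6. H19 ended lower without Dex than with it, at 79.8 and 76.7 against 802 and 765 FPKM, with 101 and 96.8 against 139 in both libraries at day 0. Rn7s2, a signal recognition particle RNA, was listed at 0 in both libraries of days 0 and 6 and in 1 of day 2, and at 86.5 FPKM in the other and 70.2 and 81.8 at day 4, and no change is drawn from it.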
